A study of Mus musculus with 6 samples.

Results

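*Aurka*, *Aurkb*, *Plk1*, *Cdk1*, *Ccnb1*, *Ccnb2*, *Ccna2*, *Birc5*, *Incenp* and *Cdca8* encode kinases of mitosis, cyclins and the 4 subunits of the chromosomal passenger complex. These 10 genes were chosen by symbol from 19938 named genes, and 9 had a transcript cluster (the probes summarised for 1 gene) annotated with that symbol alone, 1 cluster each, on chromosomes 2 (*Aurka*), 3 (*Ccna2*), 4 (*Cdca8*), 7 (*Plk1*), 9 (*Ccnb2*), 10 (*Cdk1*), 11 (*Aurkb* and *Birc5*) and 19 (*Incenp*). No cluster was annotated with *Ccnb1* alone in the platform table used here, so cyclin B1 was not analysed here. RNA came from N2A cells, a mouse neuroblastoma line grown in 10% serum. The knockdown group was transiently transfected with 1.5 µg of a vector whose short hairpin RNA targets *Paupar*, a long noncoding RNA transcribed upstream of *Pax6*, and the control group with a non-targeting vector (n = 3 biological replicates each). Total RNA was taken 2 to 3 days later by the study's methods, entered here as 2.5 days. No cluster was annotated with *Paupar*, so the size of the knockdown was not analysed on these arrays.

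All 9 measured genes had higher mean levels in *Paupar* knockdown than in control cells, by 1.20-fold to 1.46-fold. *Aurkb*, *Plk1*, *Ccna2*, *Birc5*, *Incenp* and *Cdca8* rose (limma, adjusted p between 0.0239 and 0.0487), while *Aurka*, *Cdk1* and *Ccnb2* did not pass the test. All 9 were among the 50% of genes with the larger spread over arrays, which alone were tested, and their 6 rises compare with 2.39% of the 9969 genes tested that rose and 7.54% that changed in either direction. Their median log2 fold change stood at 0.42, against 0.03 over all genes tested. The 6 calls lay close to the threshold of 0.05 and none of them remained when knockdown replicate 1, knockdown replicate 2, control replicate 1 or control replicate 3 was left out. None passed either when all transcript clusters, named or not, entered the filter and the fit (limma, lowest adjusted p = 0.181, for *Ccna2*).

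Entry into mitosis is driven by Cdk1 bound to B-type cyclins, after cyclin A2 has acted in S phase and G2. Plk1 and the Aurora kinases then act at centrosomes, kinetochores and the spindle. Aurora B works within the chromosomal passenger complex, in which Incenp is the scaffold and Birc5 (survivin) and Cdca8 (borealin) place the complex on centromeres and later on the central spindle. The mRNAs of these genes are known to peak in G2 and mitosis. Their promoters are read by complexes of the MuvB proteins, B-Myb and FoxM1 through an element called CHR, and by NF-Y through CCAAT boxes. RNA from a culture averages cells of all phases, so a larger share of cells in G2 and mitosis and more RNA per such cell cannot be told apart here.

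RefSeq promoter entries of the GRCm38.p6 assembly were available for 7 of the 10 genes, each running from 250 bases before to 50 after the annotated start. They are shown for 6 of the genes with array values for the letters they hold. The windows hold, or in *Birc5* lack, letters that match elements through which genes of G2 and mitosis are known to be read. Capitals mark matches to CHR (spelled TTTGAA or else CTTGAA or else TTCGAA), to the CCAAT box, and to an E2F element (spelled TTCCCGC or else TTCGCGC or else TTGCCGC or else TTGGCGC), each searched on both strands. The sequences lie at chr4:124936868-124937167 (*Cdca8*, minus strand), chr7:122159185-122159484 (*Plk1*, plus strand), chr2:172370521-172370820 (*Aurka*, minus strand), chr10:69352863-69353162 (*Cdk1*, minus strand), chr9:70421505-70421804 (*Ccnb2*, minus strand) and chr11:117848987-117849286 (*Birc5*, plus strand), and are written on the strand of the gene.
Cdca8: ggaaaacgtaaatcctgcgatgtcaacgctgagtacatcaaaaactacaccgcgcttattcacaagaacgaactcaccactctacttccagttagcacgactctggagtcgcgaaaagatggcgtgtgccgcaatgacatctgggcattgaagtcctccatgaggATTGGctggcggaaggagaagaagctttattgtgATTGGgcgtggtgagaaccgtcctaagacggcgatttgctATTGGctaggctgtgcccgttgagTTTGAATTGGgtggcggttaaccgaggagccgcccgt
Plk1: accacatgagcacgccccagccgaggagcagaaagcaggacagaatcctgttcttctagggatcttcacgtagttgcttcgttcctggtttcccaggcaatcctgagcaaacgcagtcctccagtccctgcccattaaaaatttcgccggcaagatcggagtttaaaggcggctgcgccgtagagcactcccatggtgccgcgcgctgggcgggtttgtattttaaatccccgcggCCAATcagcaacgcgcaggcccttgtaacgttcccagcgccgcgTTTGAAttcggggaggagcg
Aurka: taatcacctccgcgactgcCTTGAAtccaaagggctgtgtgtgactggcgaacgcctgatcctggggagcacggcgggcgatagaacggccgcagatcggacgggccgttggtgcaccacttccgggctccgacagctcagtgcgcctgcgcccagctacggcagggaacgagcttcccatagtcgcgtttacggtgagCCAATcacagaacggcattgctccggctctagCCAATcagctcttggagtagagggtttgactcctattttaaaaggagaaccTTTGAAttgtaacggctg
Cdk1: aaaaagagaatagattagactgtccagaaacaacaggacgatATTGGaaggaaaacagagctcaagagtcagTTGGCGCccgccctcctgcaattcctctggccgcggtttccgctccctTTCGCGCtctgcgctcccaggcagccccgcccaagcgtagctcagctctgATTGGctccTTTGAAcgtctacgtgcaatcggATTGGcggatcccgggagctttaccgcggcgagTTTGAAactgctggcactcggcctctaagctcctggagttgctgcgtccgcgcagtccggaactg
Ccnb2: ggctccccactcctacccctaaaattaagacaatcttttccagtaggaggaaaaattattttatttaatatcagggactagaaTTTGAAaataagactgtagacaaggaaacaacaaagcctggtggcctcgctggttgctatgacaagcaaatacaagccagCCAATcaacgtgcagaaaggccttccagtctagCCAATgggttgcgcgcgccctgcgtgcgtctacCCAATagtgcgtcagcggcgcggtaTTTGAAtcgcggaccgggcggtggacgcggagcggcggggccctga
Birc5: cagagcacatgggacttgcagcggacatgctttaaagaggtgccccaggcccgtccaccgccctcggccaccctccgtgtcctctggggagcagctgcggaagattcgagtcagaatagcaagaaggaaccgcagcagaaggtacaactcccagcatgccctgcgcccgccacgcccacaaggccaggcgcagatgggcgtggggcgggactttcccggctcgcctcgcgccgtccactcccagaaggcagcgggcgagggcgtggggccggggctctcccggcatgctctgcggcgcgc

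A CHR match was present in 5 of the 7 promoters (*Aurka*, *Plk1*, *Cdk1*, *Ccnb2* and *Cdca8*), against 29.3% of all 32851 promoters of this length, and in each of the 5 at least 1 match read TTTGAA, which 17.9% of all promoters hold. A TTTGAA began at position 5 from the annotated start in *Ccnb2*, 14 in *Cdca8*, 31 in *Plk1*, 33 in *Aurka* and -15 in *Cdk1*. CCAAT boxes were present in 6 of the 7 promoters, *Ccnb1* included, against 37.4% of all. Successive boxes stood 32 bases apart in *Aurka* and *Ccnb1*, 33 and again 33 bases apart in *Ccnb2*, 34, 40 and 29 bases apart in *Cdca8*, and 128 and 32 bases apart in *Cdk1*, counted between first bases. In *Cdca8* the box nearest the CHR match overlapped it by 1 base. Both motifs occurred together in 5 of the 7 promoters and in 11.4% of all. An E2F match was present in 2 of the 7, *Cdk1* and *Ccnb1* (where it overlapped a CCAAT box), against 9.57% of all promoters. The *Birc5* window held none of these letters. With all arrays *Ccnb2*, with 3 CCAAT boxes and 2 CHR matches, had the smallest change of the measured genes. Without control replicate 1 its log2 fold change was 0.24 and that of *Cdk1* 0.23. *Birc5*, with no match, was among those that rose. Whether these matches go with the changes was not tested. A match of letters describes the window and is not a binding site, and the absence of these letters says nothing of the factor.

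**Figure D1:**
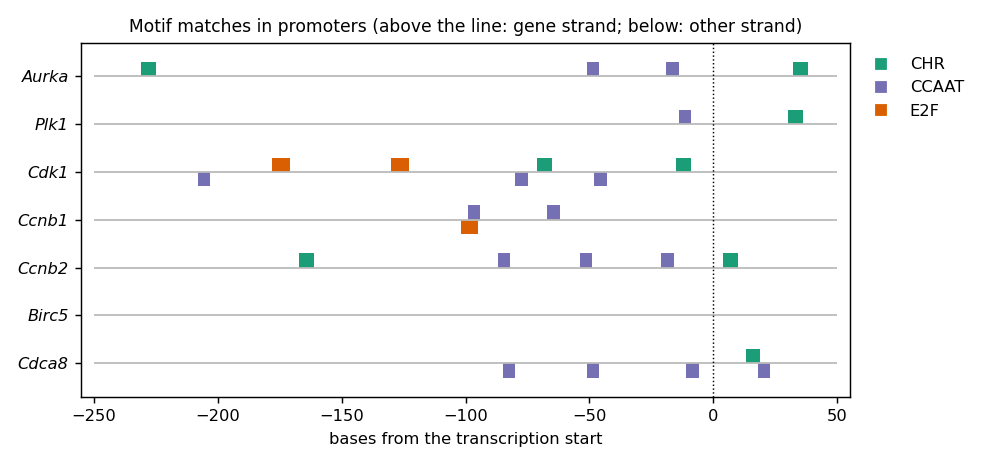
Motif matches in the 7 promoters (x axis, bases from the annotated transcription start; each row a gene). Boxes above a line are matches on the strand of the gene and boxes below it on the other strand, in green for CHR, violet for CCAAT and orange for E2F; 5 promoters hold CHR and CCAAT together and *Birc5* holds no match.

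The deposited values are log2 RMA values, in which a difference of 1 is a 2-fold change. All 6 arrays were alike in scale, with medians between 7.85 and 7.92 over named genes. The 13 measured markers of sympathetic neuroblastoma were all above the median gene, whereas 4 of 10 markers of fibroblasts and muscle, 0 of 7 of glia and 1 of 6 of blood and endothelium were. The mean of the neuroblastoma markers lay between 11.00 and 11.17 on knockdown arrays and between 11.29 and 11.35 on control arrays. Of these 13 markers 3 (*Th*, *Dbh* and *Chgb*) fell, beside 5.16% of all genes tested. The list means on knockdown and control arrays were 7.22 to 7.29 and 7.09 to 7.42 for fibroblasts and muscle, 6.94 to 6.99 and 6.80 to 6.99 for glia, and 6.89 to 7.0 and 6.77 to 7.02 for blood and endothelium. The part of the fall of neuroblastoma markers in the results was not tested. Standard deviations (SD) are over the 3 arrays of a group and standard errors (SE) are moderated by limma.

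Among the Cdk1 cyclins, *Ccna2*, which encodes cyclin A2, had 13.10, 13.21 and 13.14 in knockdown replicates 1 to 3, against 12.61, 12.69 and 12.77 in control replicates 1 to 3. All 3 knockdown values exceeded all 3 control values, and both groups were tight (SD 0.05 in knockdown and 0.08 in control). *Ccna2* rose 1.37-fold (log2 fold change 0.46, SE 0.12, limma adjusted p = 0.0305). *Ccnb2*, which encodes cyclin B2, had 11.89, 11.90 and 12.30 in knockdown cells, against 11.71, 11.64 and 11.94 in control cells. The groups overlapped, because control replicate 3 lay above knockdown replicates 1 and 2. Its log2 fold change was 0.27 with a 95% interval of -0.03 to 0.56 (limma adjusted p = 0.237). Within each group replicate 3 was the highest for *Ccnb2*, and its fold change was 0.13 on the log2 scale without knockdown replicate 3 and 0.35 without control replicate 3.

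*Cdk1*, the kinase that these cyclins activate, had 12.59, 12.52 and 12.42 in knockdown cells, against 11.83, 12.32 and 12.25 in control cells. The groups did not overlap, but control replicate 1 lay farther below the other controls than these lay below the lowest knockdown array. The log2 fold change of 0.38 (SE 0.14) did not pass the test (limma adjusted p = 0.111). It was 0.23 without control replicate 1, the lowest value for *Cdk1* with any 1 array left out.

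*Plk1*, a kinase of centrosomes and kinetochores that also promotes the activation of Cdk1, had 12.05, 12.15 and 12.05 in knockdown cells, against 11.49, 11.74 and 11.75 in control cells. It rose 1.34-fold (log2 fold change 0.42, SE 0.12, limma adjusted p = 0.0478). *Aurka*, which encodes the Aurora kinase of centrosomes and spindle poles, had 11.23, 11.29 and 11.19 in knockdown cells, against 10.57, 10.91 and 10.93 in control cells. Both genes were separated between groups on every array, with control replicate 1 the lowest. The change of *Aurka* was as large as that of *Plk1*, at 0.43 (SE 0.13), but its controls differed more (SD 0.20) and it missed the threshold (limma adjusted p = 0.0543). The log2 ratio of *Aurka* to *Plk1* differed between groups by 0.01 (exact permutation test, two-sided, p = 1, n = 3 per group).

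The chromosomal passenger complex was measured with all 4 subunits, and all 4 rose. *Aurkb*, its kinase, had 11.77, 11.76 and 11.88 in knockdown cells, against 11.28, 11.37 and 11.51 in control cells. *Incenp* had 10.56, 10.57 and 10.41 in knockdown cells, against 9.86, 10.16 and 10.19 in control cells. Knockdown and control values were separated for both genes, and knockdown replicate 3 was the highest array for *Aurkb* and the lowest knockdown array for *Incenp*. *Birc5* had 10.19, 10.15 and 10.22 in knockdown cells, against 9.59, 9.89 and 9.80 in control cells, and the knockdown arrays differed by no more than 0.07. *Cdca8* had 10.60, 10.69 and 10.77 in knockdown cells, against 9.90, 10.26 and 10.25 in control cells. It showed the largest change of the 9 genes, 1.46-fold (log2 fold change 0.55, SE 0.13, limma adjusted p = 0.0239). The other subunits rose 1.34-fold (*Aurkb*, limma adjusted p = 0.0454), 1.36-fold (*Incenp*, 0.0487) and 1.34-fold (*Birc5*, 0.0481).

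**Figure D2:**
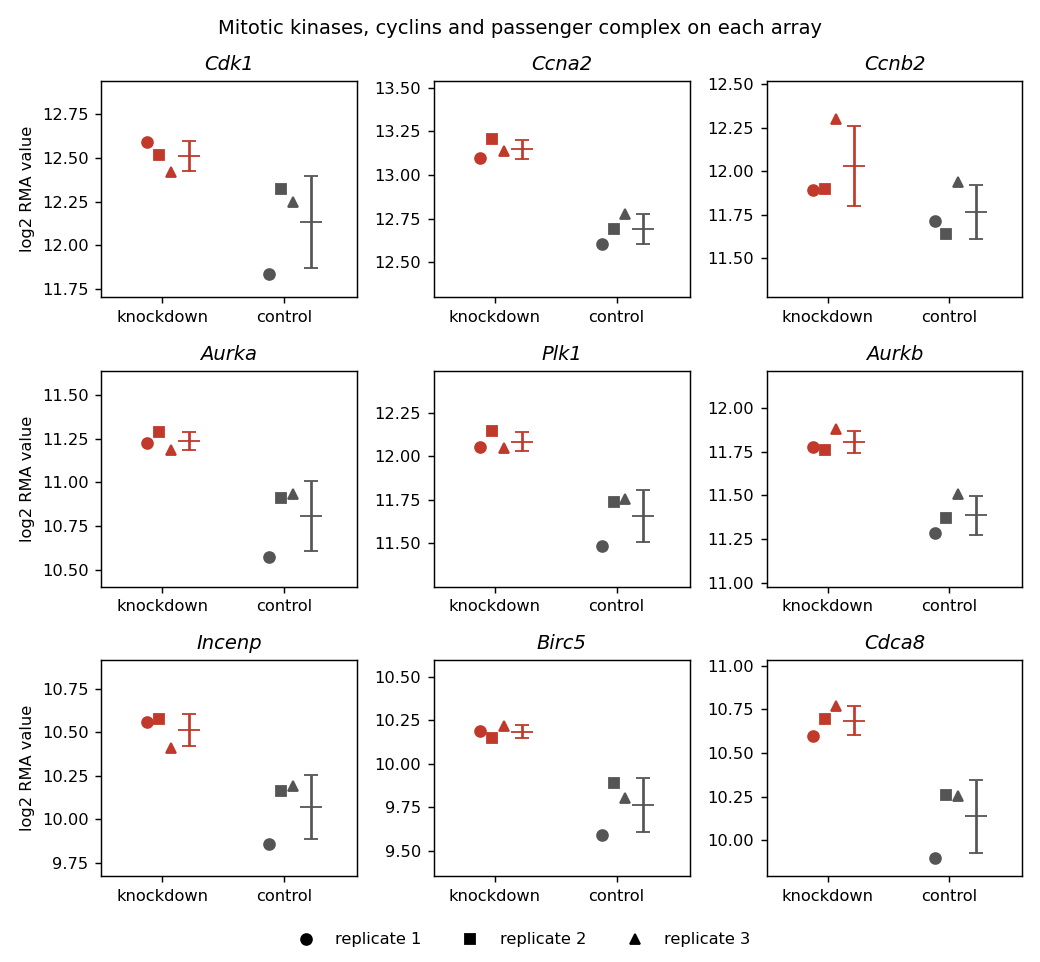
Log2 RMA value of each gene on each array (y axis, each panel spanning the same range) for knockdown (red, left) and control (grey, right). Markers give the replicate, and bars the group mean and SD (n = 3); *Ccnb2* is the gene whose groups overlap, and control replicate 1 is the lowest control for all but *Ccnb2*.

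The groups did not overlap, with knockdown higher, for 8 of the 9 genes, as for 15.1% of the 9969 genes tested. An exact two-sided permutation test of single genes gave p = 0.1 for these 8, the smallest that 3 against 3 arrays allow, and p = 0.3 for *Ccnb2*. Control replicate 1 was the lowest control for 8 of the 9 genes. Relative to the control mean, the median of the 9 genes stood at 0.42, 0.48 and 0.45 on knockdown replicates 1 to 3, and at -0.17, 0.09 and 0.12 on control replicates 1 to 3. In this median the knockdown arrays thus lay close together and 1 control stood apart from the other 2. Over all named genes the knockdown arrays were less uniform. Knockdown replicate 3 had a Pearson r of 0.9953 and 0.9955 with knockdown replicates 1 and 2, and of 0.9959 with control replicate 3. The r between knockdown replicates 1 and 2 was 0.9980. The SD was larger in control than in knockdown cells for 8 genes, with *Ccnb2* the exception. Without control replicate 1 the median log2 fold change was 0.34 and all 9 values remained above 0, but no gene passed (limma, lowest adjusted p = 0.0635, for *Cdca8*). With any 1 array left out the median lay between 0.34 and 0.48.

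**Figure D3:**
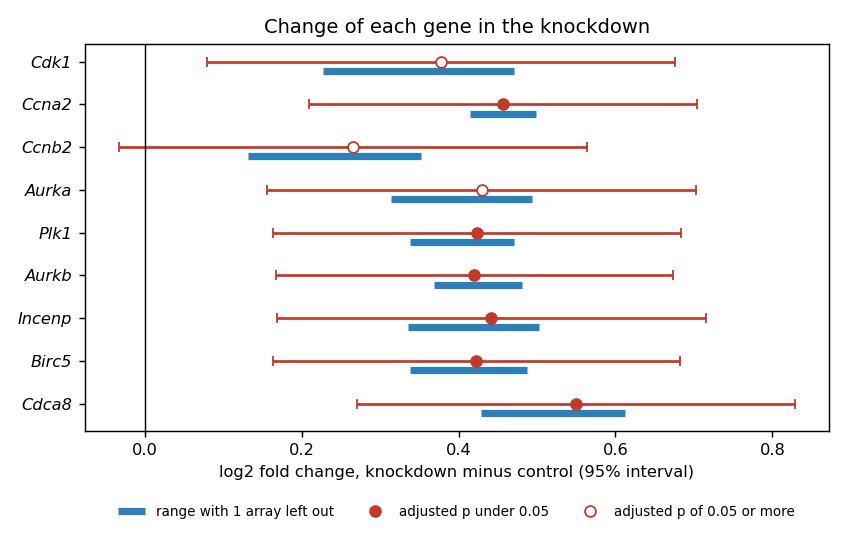
Log2 fold change of each gene, knockdown minus control (x axis), with its 95% interval from limma (red); filled points have an adjusted p under 0.05. Blue bars give the range of the fold change when any 1 of the 6 arrays was left out; every blue bar lies above 0, and only the interval of *Ccnb2* reaches below 0.

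The calls, unlike the sign of the fold changes, depended on single arrays. With knockdown replicate 3 left out *Plk1*, *Ccna2*, *Incenp* and *Cdca8* passed, and with control replicate 2 left out *Ccna2*, *Birc5*, *Incenp* and *Cdca8* passed. In the other 4 fits of this kind 0 of the 9 genes passed after adjustment, although 8 or 9 had an unadjusted limma p under 0.05 in each. The number of all genes called moved with them, between 112 without control replicate 3 and 1239 without knockdown replicate 3, compared with 752 on all arrays. *Ccna2*, *Incenp* and *Cdca8* passed in 2 of the 6 fits, *Plk1* and *Birc5* in 1 and *Aurkb*, *Aurka*, *Cdk1* and *Ccnb2* in 0.

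**Figure D4:**
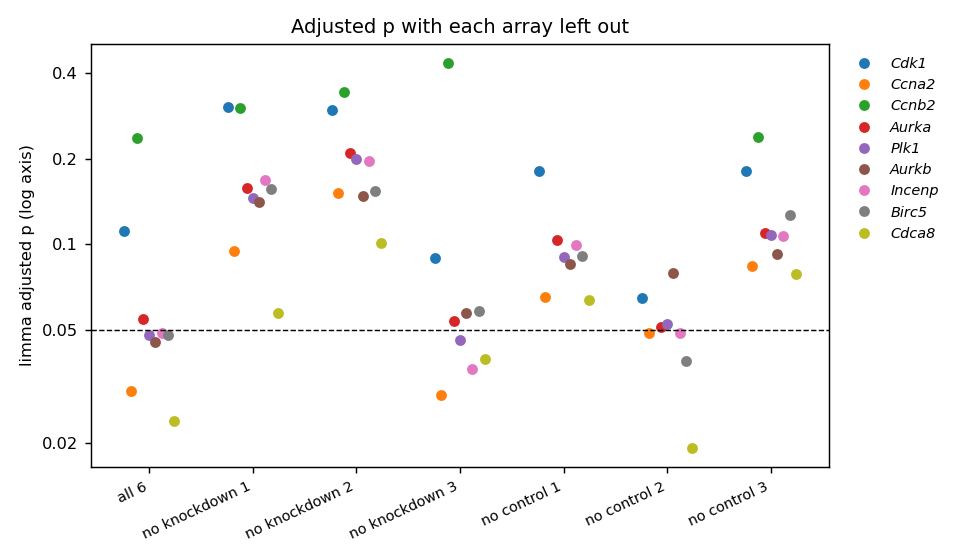
Adjusted p from limma (y axis, log scale) for each gene with all 6 arrays and with each array left out in turn (x axis). The dashed line marks 0.05; 6 genes lie below it with all arrays, 4 without knockdown replicate 3 or control replicate 2, and none in the other fits. A point is missing where *Ccnb2* did not pass the variance filter.

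Whether subunits of 1 complex changed alike was asked with the log2 ratio of 2 genes on each array, for 5 of 8 planned pairs (the other 3 needed *Ccnb1*). The ratio to *Incenp* differed between groups by -0.02 for *Aurkb*, by -0.02 for *Birc5* and by 0.11 for *Cdca8*, and the ratio of *Aurka* to *Aurkb* by 0.01. The exact two-sided permutation p lay between 0.4 and 1 over the 5 pairs, adjusted p = 1 for each, in a design that cannot go below 0.1. The ratio of *Cdca8* to *Incenp* was 0.04, 0.12 and 0.36 in knockdown cells, against 0.04, 0.10 and 0.06 in control cells, so that its difference came mostly from knockdown replicate 3. These tests do not show that the subunits changed equally.

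Other genes of the same pathway were counted in lists. Of 17 measured regulators of Cdk1, 11 were tested, 2 rose and none fell, beside 2.39% of all genes tested that rose. The median log2 fold change was 0.17. Of the 17, 14 had a log2 fold change above 0 and 3 below, beside 58.4% above 0 among all named genes. *Cdc25a*, a phosphatase that activates cyclin-dependent kinases, was 11.24 ± 0.17 in knockdown and 10.64 ± 0.21 in control cells (SD, n = 3), a 1.52-fold rise (limma adjusted p = 0.0209). *Ccnf*, the F-box protein cyclin F, rose 1.55-fold (limma adjusted p = 0.0431). Named here after their values were seen, the inhibitory kinases *Wee1* and *Pkmyt1* had log2 fold changes of 0.40 and 0.36 and the activating phosphatases *Cdc25b* and *Cdc25c* of 0.33 and 0.04, and none of the 4 passed. These 4 values, of inhibitors and activators alike, were above 0, and *Cdc25c* was not tested because it varied too little over arrays. The 3 genes of the list below 0 were *Cdk7* (-0.22), *Arpp19* (-0.06) and *Mnat1* (-0.04). Neither called gene passed without knockdown replicate 1, knockdown replicate 2, control replicate 1 or control replicate 3.

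Of 21 partners and effectors of the Aurora kinases and Plk1, 16 were tested, 5 rose and none fell, beside 2.39% of all genes tested that rose. Of the 21, 20 had a log2 fold change above 0, against 58.4% of all named genes. The median was 0.40. *Pbk*, a kinase of mitotic cells, rose 1.63-fold (limma adjusted p = 0.0225). *Nedd1*, which brings gamma-tubulin to centrosomes, rose 1.45-fold, and the shugoshins *Sgo1* and *Sgo2a*, which protect centromeric cohesion and bind near the passenger complex, rose 1.42-fold and 1.41-fold. *Nedd1* was 9.76 ± 0.01 in knockdown cells and 9.22 ± 0.30 in control cells (SD, n = 3), with the spread larger in control cells. None of the 5 passed without knockdown replicate 1, knockdown replicate 2, control replicate 1 or control replicate 3. Without control replicate 2, 8 genes of this list of partners and effectors passed.

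A further list held the machinery that destroys cyclins and ends mitosis. Of its 23 measured genes 12 were tested, 4 rose and 1 fell, beside 2.39% of all genes tested that rose and 5.16% that fell. The median log2 fold change was 0.15. *Fbxo5*, which encodes the inhibitor Emi1 of the anaphase-promoting complex, rose most in this list, 1.73-fold (11.31 ± 0.11 in knockdown and 10.52 ± 0.28 in control cells, limma adjusted p = 0.00631). *Espl1*, the protease separase, rose 1.48-fold and *Ppp1cc*, a catalytic subunit of protein phosphatase 1, 1.36-fold. *Cdc14b*, a phosphatase related to the yeast mitotic exit enzyme, fell to 7.87 ± 0.17 in knockdown cells, against 8.53 ± 0.14 in control cells, a decrease of 1.58-fold (limma adjusted p = 0.0105). *Fbxo5* passed in 5 of the 6 fits with 1 array left out, missing the threshold without control replicate 3 (limma adjusted p = 0.0629). *Cdc14b* passed in 3 and missed it without knockdown replicate 1, knockdown replicate 2 or control replicate 3, where the adjusted p lay between 0.052 and 0.0684. Between 0 and 1 of the list's rises passed without knockdown replicate 1, knockdown replicate 2, control replicate 1 or control replicate 3.

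Of 16 measured transcription factors and cofactors of mitotic genes, all 16 had a log2 fold change above 0, against 58.4% of all named genes. In this list 12 were tested, 4 rose and none fell (median 0.30), beside 2.39% of all genes tested that rose. *Mybl2*, which encodes B-Myb, was 10.34 ± 0.19 in knockdown and 9.51 ± 0.41 in control cells (SD, n = 3), a 1.78-fold rise (limma adjusted p = 0.0148). *Foxm1* rose 1.52-fold (adjusted p = 0.0214 by limma). *Lin54*, the MuvB subunit that contacts the CHR, rose 1.45-fold, and *Tfdp1*, an E2F dimerization partner, 1.44-fold. *Mybl2* passed in 4 of the 6 fits with 1 array left out, all but those without knockdown replicate 2 (adjusted p = 0.0614 by limma) or control replicate 1 (0.0537). *Foxm1*, *Lin54* and *Tfdp1* passed in 2, those without knockdown replicate 3 or control replicate 2.

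Close paralogues of the mitotic genes made a further list. Of 15 measured, 8 were tested, 1 rose and none fell, beside 2.39% of all genes tested that rose. Of the 15, 7 had a log2 fold change above 0 and 8 below, against 58.4% above 0 among all named genes, and the median was -0.01. The gene that rose was *Cdk2*, the partner of cyclins A and E in S phase, at 1.45-fold (limma adjusted p = 0.0236). It did not pass without knockdown replicate 1, knockdown replicate 2, control replicate 1 or control replicate 3. *Aurkc*, the meiotic Aurora kinase, *Ccna1* and *Ccnb3*, cyclins of germ cells, and *Plk2* and *Plk3* were named here after their values were seen, with log2 fold changes between -0.06 and 0.08. Except for *Plk3*, their group means lay between 4.86 and 7.72, below the array medians of 7.85 to 7.92. Whether their small changes reflect low signal was not tested. Larger changes were those of *Cdk3* (-0.33), *Birc7* (0.27) and *Plk5* (0.24), and none of them passed (limma adjusted p = 0.101, 0.191 and 0.21). Also named after its value was seen, *Plk4*, the kinase of centriole duplication, had a log2 fold change of 0.24 (limma adjusted p = 0.222).

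A list of origin licensing and helicase genes, which act in DNA replication, was set beside the mitotic genes. Of its 17 measured genes 16 were tested, 11 rose and none fell, beside 2.39% of all genes tested that rose. The median log2 fold change of the list was 0.58, against 0.42 for the 9 mitotic genes. *Cdc6*, the helicase loader, rose 1.83-fold and passed whichever array was left out. *Mcm3*, *Mcm7* and *Gins3*, parts of the replicative helicase, rose 1.74-fold, 1.55-fold and 1.46-fold. On knockdown replicates 1 to 3 the median of this list stood at 0.68, 0.67 and 0.44 relative to the control mean, and on control replicates 1 to 3 at -0.36, 0.22 and 0.18. The list was thus lower on knockdown replicate 3 than on the other knockdown arrays, whereas the median of the mitotic genes on that array lay between the other 2. Between 1 and 2 of its genes passed without knockdown replicate 1, knockdown replicate 2, control replicate 1 or control replicate 3. No test of the difference between the lists was made.

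**Figure D5:**
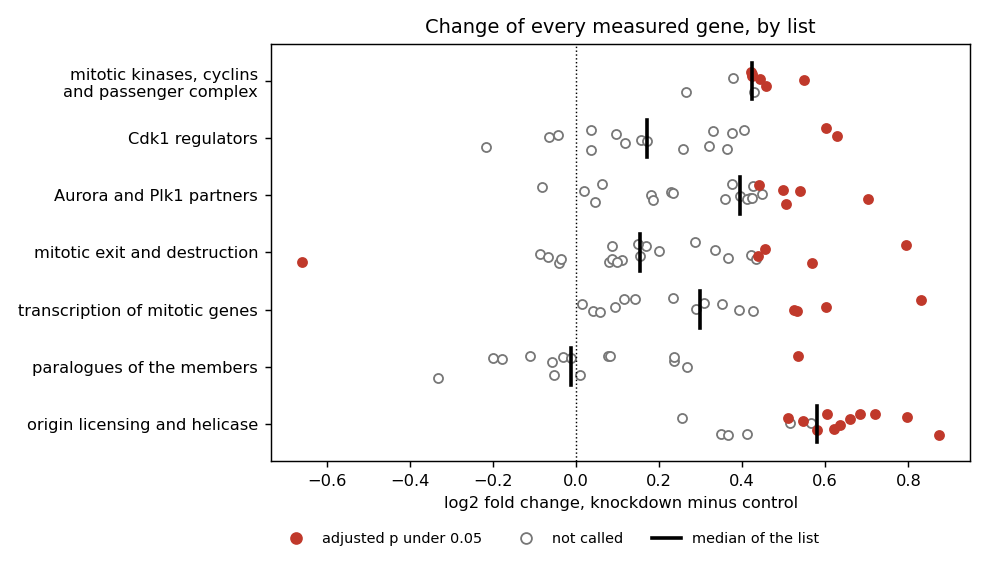
Log2 fold change of every measured gene, knockdown minus control (x axis), for the 9 mitotic genes and 6 pathway lists (rows). Filled red points passed limma with an adjusted p under 0.05 and black bars give the median of each list, which is 0.42 for the mitotic genes, 0.58 for origin licensing and helicase and -0.01 for the paralogues.

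The genes outside these lists whose values followed the mean of the 9 genes most closely were *Gatad2a*, *Cdca5*, *E2f8*, *D030056L22Rik* and *Mtfr2*, with a Pearson r over the 6 arrays of 0.995 to 0.997 among 19784 genes searched. This likeness is a description in which the group difference takes part. *Cdca5* encodes sororin, a regulator of cohesin, and rose by 0.60 on the log2 scale (limma adjusted p = 0.0189), and *E2f8*, a repressor of the E2F family, rose by 0.52 (limma adjusted p = 0.0259). *Gatad2a*, a subunit of the NuRD complex, had the highest r but a change of only 0.23, which did not pass (limma adjusted p = 0.219). For *Gatad2a* the knockdown values were 11.40, 11.43 and 11.41, against 11.11, 11.22 and 11.24 in control cells, so the groups were separated by a smaller distance. *Cdca5* and *E2f8* each passed in 2 of the 6 fits with 1 array left out, those without knockdown replicate 3 or control replicate 2.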

How the data were processed

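The authors hybridised RNA from 3 *Paupar* knockdown and 3 control N2A cultures to Affymetrix Mouse Gene 1.0 ST arrays and deposited log2 expression values per transcript cluster after RMA background correction and quantile normalisation. For their processing, software versions, genome build and scan dates were not given in the sources used here. Of 35556 clusters, 21789 carried 1 gene symbol in the platform annotation, 1621 several and 12146 none, and only those with 1 were named. The cluster with the highest mean stood for a gene, which gave 19938 genes.

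Genes in the lower 50% by interquartile range were left out, which is 1 reading of the variance filter named in the study's methods (a filter on sample variance was an alternative), and the other 9969 were fitted with lmFit and eBayes (limma 3.58.1, R 4.3.3). P-values were adjusted by Benjamini-Hochberg over these genes, with a threshold of 0.05. The number of arrays limits the precision. The scripts were tested on simulated data.

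The called genes named in each pathway list were those with the lowest p, at most 4 per list, genes that were not called were named after their values were seen, and those named for likeness the 5 with the highest Pearson r to the mean of the mitotic genes. The genes and lists were chosen with earlier results of these data known. Single genes were also tested by exact permutation of 3 against 3 arrays. Alternatives changed the filter, the scaling, the arrays and the model. Promoters were RefSeq windows of 250 bases before and 50 after the start (GRCm38.p6).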

Additional observations from a re-analysis of the deposited data

How the results depend on the processing

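All 9 measured mitotic genes kept a log2 fold change above 0 under each of the 16 alternatives, whereas the calls did not all hold. With 1 array left out, 112 to 1239 of all genes were called (752 on all arrays), 0 to 4 mitotic genes rose (6), and 2 to 35 pathway genes rose (27) and 0 to 1 fell (1). With no variance filter 15 pathway genes rose, and *Incenp* missed the threshold (limma adjusted p = 0.0601). With the filter on sample variance *Aurka* passed as well (limma adjusted p = 0.0444). With all transcript clusters kept, limma called 0 genes, hence 0 mitotic genes and 0 pathway genes higher or lower, while 3015 of 17778 clusters and 8 mitotic genes had an unadjusted p under 0.05. Array weights gave 5561 genes called, 8 mitotic genes and 57 pathway genes higher and 4 pathway genes lower. The weights were lowest for control replicate 1 (0.289) and knockdown replicate 3 (0.312) and highest for control replicate 3 (4.44). The replicate number as a block left 2 mitotic genes called (*Ccna2* and *Cdca8*) and 680 of all genes; arrays of 1 number did not deviate together (r = -0.34, 0.10 and 0.08 over genes for numbers 1 to 3), so the numbers were not taken as pairs.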
